A study of Homo sapiens with 6 samples.

Results

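The ATF4 amino acid and tRNA synthetase programme was followed here as 41 named genes in U937, an established human cell line that the labels give as acute myeloid leukaemia (AML). The members were taken by symbol, through their Ensembl IDs, from a table of 61806 genes, and all 41 were found and tested. They fall into 7 amino acid transporters, 6 serine and one-carbon enzymes, 12 cytosolic tRNA synthetases, 12 stress regulators and 4 other amino acid enzymes. The RNA-seq libraries came from cells given ethacrynic acid, a loop diuretic that reacts with thiols and inhibits glutathione transferases (3 libraries), and from control cells given DMSO, its solvent (3 libraries). The stated purpose was to see how the compound affects myeloid differentiation. The sample titles give day 3, the treatment note gives 2 days, and no dose is given. All libraries came from the same line, grown in RPMI medium with serum. Nothing in the labels says whether replicates were separate cultures, so each p-value measures a spread between libraries that may be technical.

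ATF4 is the transcription factor of the integrated stress response. Kinases that sense missing amino acids, unfolded protein, heme shortage or double-stranded RNA phosphorylate the initiation factor eIF2, which slows most translation but favours that of ATF4 mRNA. ATF4 protein then pairs with C/EBP proteins on composite C/EBP-ATF elements and raises genes for amino acid uptake, amino acid synthesis and tRNA charging, together with regulators that feed back on the response or, like CHOP, promote cell death. Its mRNA level alone does not report its protein level, which these libraries do not measure.

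None of the 41 genes passed the test between ethacrynic acid and control libraries (edgeR's quasi-likelihood test, Benjamini-Hochberg adjustment over 19611 genes, called at an adjusted p under 0.05), while 0.265% of all genes tested did (52 genes). Without adjustment 7 members had p under 0.05, beside 11.1% of all genes. DESeq2 called 3 members (SLC3A2, SLC7A5 and IARS1), beside 3.82% of the 16082 genes to which it gave an adjusted p, and limma-voom called 0. With the replicate number as a term in the fit, 3 members were called (SLC3A2, SLC7A5 and DDIT3), beside 1.81% of all genes. The median log2 fold change of the members was -0.027, with 20 above and 21 below 0, and that of all genes tested was -0.00035. The members were measured more tightly than most genes, with a median SE of 0.112 on the log2 scale beside 0.198 over all genes tested. For 36 of the 41, the 95% interval of the fold change lay within 2-fold in either direction, and for 30 it lay within 1.5-fold. In bulk RNA, fewer cells of a type and less RNA per cell cannot be told apart.

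**Figure D1:**
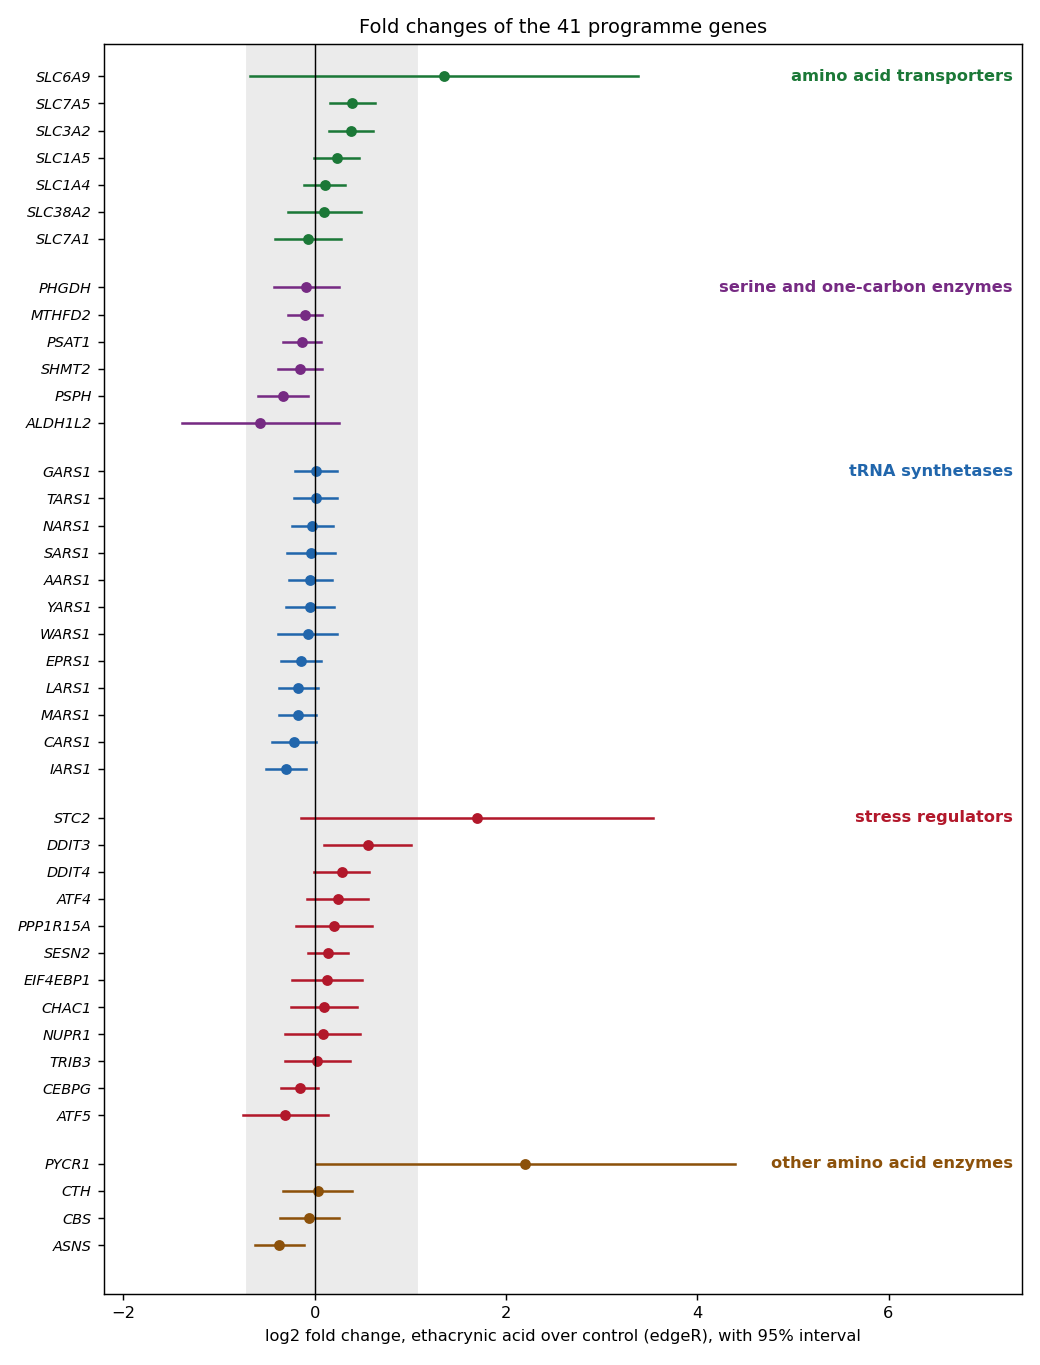
Each point is the log2 fold change of 1 member, ethacrynic acid over control, with its 95% interval from edgeR, grouped by role in 5 colours. The grey band runs from the 5th to the 95th percentile of all tested genes (-0.71 to 1.07), and only SLC6A9, STC2 and PYCR1 have points outside it.

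The parts did not lie on the same side of 0. Transporters had a median log2 fold change of 0.23 (6 of 7 above 0) and stress regulators one of 0.13 (10 of 12 above 0). Serine and one-carbon enzymes had a median of -0.14 (0 of 6 above 0), tRNA synthetases one of -0.064 (2 of 12 above 0) and the other amino acid enzymes one of -0.013 (2 of 4 above 0). The ethacrynic acid values were all above the control values for 4 members (SLC3A2, SLC7A5, SLC1A5 and DDIT4), a pattern found in 8.64% of all genes. They were all below for 11 members (PSAT1, PSPH, MTHFD2, ALDH1L2, CARS1, EPRS1, IARS1, LARS1, MARS1, CEBPG and ASNS), a pattern found in 8.99% of all genes. When libraries were scaled to total counts alone, all genes had a median of -0.080, and members above 0 numbered 6 of 7 transporters, 0 of 6 serine and one-carbon enzymes, 0 of 12 synthetases and 9 of 12 stress regulators. Without ethacrynic acid replicate 3, a library described further on, the members above 0 were 4 of 7 transporters (median 0.15), 8 of 12 stress regulators (0.098), 1 of 6 serine and one-carbon enzymes (-0.14), 4 of 12 synthetases (-0.071) and 0 of 4 other enzymes (-0.14).

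The 6 promoters printed next hold letters of the C/EBP-ATF element and belong to members whose estimates lay on opposite sides of 0. The motif TGATGNAA and its reverse complement TTNCATCA, which is the same motif on the other strand, were searched in windows of 300 bases (250 before and 50 after each start) from RefSeq on GRCh38.p14. A window was given for 33 of the 41 members, and 14 of these genes (42.4%) had a match in at least 1 window, beside 4.46% of all 27305 genes with a window. The members were listed as genes of the ATF4 programme, so their higher share may come from that choice and is no test of them. Counted by window, 3.62% of all windows held the motif. Among members it was in 14 of the 24 windows of the genes with a match. The 29 windows of the genes without one hold 0 by definition. By part, a match was found in 7 of 10 synthetases, 4 of 7 transporters, 2 of 10 stress regulators, 0 of 3 serine and one-carbon enzymes and 1 of 3 other enzymes. Other cytosolic synthetases and their scaffold proteins had a match in 0 of 9 genes, mitochondrial synthetases in 1 of 14, genes upstream of ATF4 in 1 of 16 and the endoplasmic reticulum chaperone arm in 1 of 15. Other amino acid transporters had a match in 2 of 14 genes (14.3%), other one-carbon and amino acid enzymes in 3 of 18 (16.7%) and further ATF4 targets and partners in 3 of 21 (14.3%).

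The windows run 5′ to 3′ along the gene, with the match in capitals. They are SLC3A2 at chr11:62881449-62881748 (plus strand), IARS1 at chr9:92293648-92293947 (minus), ASNS at chr7:97872359-97872658 (minus), SLC1A5 at chr19:46784765-46785064 (minus), CARS1 at chr11:3057374-3057673 (minus) and MARS1 at chr12:57487818-57488117 (plus). RefSeq gives 3 windows each for SLC3A2 and SLC1A5 and 2 each for ASNS and CARS1, and in these genes 1 window held a match.
SLC3A2: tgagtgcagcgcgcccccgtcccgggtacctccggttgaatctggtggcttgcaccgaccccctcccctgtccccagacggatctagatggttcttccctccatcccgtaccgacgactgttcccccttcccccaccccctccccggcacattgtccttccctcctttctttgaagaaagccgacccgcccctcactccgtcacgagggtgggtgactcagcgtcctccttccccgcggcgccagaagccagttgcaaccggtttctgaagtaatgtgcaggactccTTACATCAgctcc
IARS1: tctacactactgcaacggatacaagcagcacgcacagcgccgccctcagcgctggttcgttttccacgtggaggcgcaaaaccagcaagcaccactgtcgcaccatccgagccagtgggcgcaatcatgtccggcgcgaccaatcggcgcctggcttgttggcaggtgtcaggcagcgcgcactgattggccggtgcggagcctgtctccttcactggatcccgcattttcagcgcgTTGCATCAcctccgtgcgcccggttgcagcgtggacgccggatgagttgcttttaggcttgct
ASNS: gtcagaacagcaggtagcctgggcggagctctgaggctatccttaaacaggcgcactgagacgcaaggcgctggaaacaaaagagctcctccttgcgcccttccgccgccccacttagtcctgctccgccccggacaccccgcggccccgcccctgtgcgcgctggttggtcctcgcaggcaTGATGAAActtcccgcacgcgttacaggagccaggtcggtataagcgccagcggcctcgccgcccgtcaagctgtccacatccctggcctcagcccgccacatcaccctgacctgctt
SLC1A5: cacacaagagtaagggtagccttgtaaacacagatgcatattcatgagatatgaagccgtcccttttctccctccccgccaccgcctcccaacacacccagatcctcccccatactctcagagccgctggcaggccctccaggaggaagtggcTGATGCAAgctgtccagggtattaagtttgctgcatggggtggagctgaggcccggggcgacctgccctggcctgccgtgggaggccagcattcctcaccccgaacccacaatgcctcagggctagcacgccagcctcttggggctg
CARS1: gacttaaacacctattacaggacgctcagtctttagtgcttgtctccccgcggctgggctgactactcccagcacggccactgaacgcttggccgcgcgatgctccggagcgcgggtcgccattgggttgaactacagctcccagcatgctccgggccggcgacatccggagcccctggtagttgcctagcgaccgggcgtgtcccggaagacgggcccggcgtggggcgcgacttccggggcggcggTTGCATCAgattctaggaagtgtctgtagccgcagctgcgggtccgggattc
MARS1: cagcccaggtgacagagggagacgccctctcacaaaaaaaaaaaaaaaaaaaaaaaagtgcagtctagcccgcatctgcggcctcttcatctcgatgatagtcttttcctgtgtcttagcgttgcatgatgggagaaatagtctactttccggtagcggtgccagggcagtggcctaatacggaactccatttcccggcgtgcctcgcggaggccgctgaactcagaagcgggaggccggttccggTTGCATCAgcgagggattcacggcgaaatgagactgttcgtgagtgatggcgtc

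The matches in IARS1, CARS1 and MARS1 have the same letters, TTGCATCA, and start 13, 2 and 4 bases before the start site. SLC1A5 has that sequence on the other strand, TGATGCAA. ASNS has TGATGAAA starting 68 bases before its start site. Members with a match had a median log2 fold change of -0.036 (6 above and 8 below 0, from -0.37 to 0.38). Members with a window and no match had one of 0.031 (11 above and 8 below 0, from -0.31 to 1.69). These include STC2 (1.69) and SLC6A9 (1.35), which were at -0.083 and -0.69 without ethacrynic acid replicate 3. A match is a run of letters and not a measured binding site.

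Among the regulators, ATF4 itself (ENSG00000128272, chromosome 22, 39519695 to 39522685, plus strand, GENCODE 29 on GRCh38) had 809, 652 and 577 CPM (counts per 1000000 of the TMM-scaled library size) in ethacrynic acid libraries, against 635, 559.9 and 532 CPM in control libraries. The groups overlapped, and the fold change was 1.18 (95% interval 0.944 to 1.48, adjusted p = 0.551 by edgeR's quasi-likelihood test). ATF4 has 4 named pseudogenes, which makes its count uncertain. DDIT3 (chromosome 12, 57516588 to 57521737, minus strand), which encodes CHOP, had 40.3, 30.7 and 27.9 CPM in ethacrynic acid libraries and 28.3, 20.4 and 18.8 CPM in control libraries. Its lowest ethacrynic acid value was just under the highest control value. The log2 fold change was 0.55 ± 0.20 (SE, n = 3 each, adjusted p = 0.389, edgeR). With the replicate number as a term in the fit, DDIT3 was called (adjusted p = 0.0354, edgeR). Exons of DDIT3 and MARS1 overlap on opposite strands, and the counting step is not given, so reads of these genes may be mixed.

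ATF5, a related factor whose mRNA is also translated preferentially under stress, had 62.5, 45.9 and 39.5 CPM in ethacrynic acid libraries, against 73.7, 53.7 and 55.6 CPM in control libraries. The ranges overlapped, and edgeR put the log2 fold change at -0.31 ± 0.19 (SE) with an adjusted p of 0.575. ATF4 and ATF5 thus had point estimates on opposite sides of 0, and neither passed the test. ATF5 shares exon positions with IL4I1 and NUP62 on the other strand. TRIB3, a pseudokinase that restrains ATF4 and CHOP, had 241, 181 and 173 CPM with ethacrynic acid and 216, 173 and 194 CPM in controls (1.02-fold, 95% interval 0.805 to 1.29). CHAC1, which degrades glutathione, had 16.0, 12.3 and 16.4 CPM with ethacrynic acid and 13.5, 13.0 and 15.2 CPM in controls (1.07-fold, 95% interval 0.840 to 1.36). Both of these downstream genes had intervals that reach neither 1.5-fold higher nor 1.5-fold lower.

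DDIT4, an inhibitor of mTORC1, had 53.1, 47.7 and 64.3 CPM in ethacrynic acid libraries, against 46.4, 47.0 and 42.3 CPM in control libraries. These groups did not overlap, by a margin of less than 1 CPM, and the fold change was 1.22 (95% interval 0.998 to 1.49, adjusted p = 0.451, edgeR). CEBPG, a C/EBP partner of ATF4, averaged 137 ± 8.12 CPM with ethacrynic acid and 153 ± 2.05 CPM in controls (SD, n = 3 each), also without overlap. The remaining regulators had adjusted p-values from 0.590 to 0.883 by edgeR's quasi-likelihood test and log2 fold changes of 0.083 to 0.20. They are SESN2, which couples amino acid supply to mTORC1, PPP1R15A, the eIF2 phosphatase subunit, NUPR1, a stress-induced chromatin protein, and EIF4EBP1, a translation repressor. STC2, a secreted glycoprotein, is described with the genes high in ethacrynic acid replicate 3.

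The transporters hold the smallest p-values among the members. SLC3A2 (ENSG00000168003, chromosome 11, 62856102 to 62888875, plus strand) encodes the heavy chain of heteromeric amino acid transporters, also known as CD98. It had 327, 293 and 280.0 CPM in ethacrynic acid libraries, against 246, 230.2 and 213 CPM in control libraries. SLC7A5 (ENSG00000103257, chromosome 16, 87830023 to 87869488, minus strand) encodes LAT1, the light chain that carries leucine and other large neutral amino acids. It had 491, 444 and 418 CPM in ethacrynic acid libraries, against 357, 359 and 314 CPM in control libraries. For these partner chains every ethacrynic acid library lay above every control library, and the fold changes were alike, 1.31 (95% interval 1.11 to 1.53) for SLC3A2 and 1.31 (1.12 to 1.55) for SLC7A5. The adjusted p was 0.235 for both by edgeR's quasi-likelihood test, so neither was called. DESeq2 gave them adjusted p-values of 0.0122 and 0.0110. Leaving out 1 library at a time gave adjusted p-values of 0.140 to 0.803 for SLC3A2 and 0.131 to 0.793 for SLC7A5. SLC7A5 has 2 named pseudogenes, among which its reads could be divided.

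SLC1A5, the glutamine and neutral amino acid exchanger ASCT2, had 776, 641 and 649.9 CPM in ethacrynic acid libraries, against 600.0, 591 and 571 CPM in control libraries. The groups did not overlap, and the log2 fold change was 0.23 ± 0.10 (SE, n = 3 each, adjusted p = 0.461, edgeR). SLC1A4, its close relative ASCT1, averaged 251 ± 14.7 CPM with ethacrynic acid and 233 ± 15.2 CPM in controls. SLC7A1, the cationic amino acid transporter that brings in arginine, averaged 136 ± 26.3 CPM with ethacrynic acid and 143 ± 10.1 CPM in controls. SLC38A2, the stress-inducible glutamine and alanine transporter SNAT2, averaged 178 ± 39.3 CPM with ethacrynic acid and 166 ± 18.7 CPM in controls (SD, n = 3 each). Summed over the 7 transporters, ethacrynic acid libraries had 2007 ± 81.0 CPM and control libraries 1703 ± 59.9 CPM (SD, n = 3 each), and the groups did not overlap. SLC1A5, SLC7A5 and SLC3A2 make up most of this sum.

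**Figure D2:**
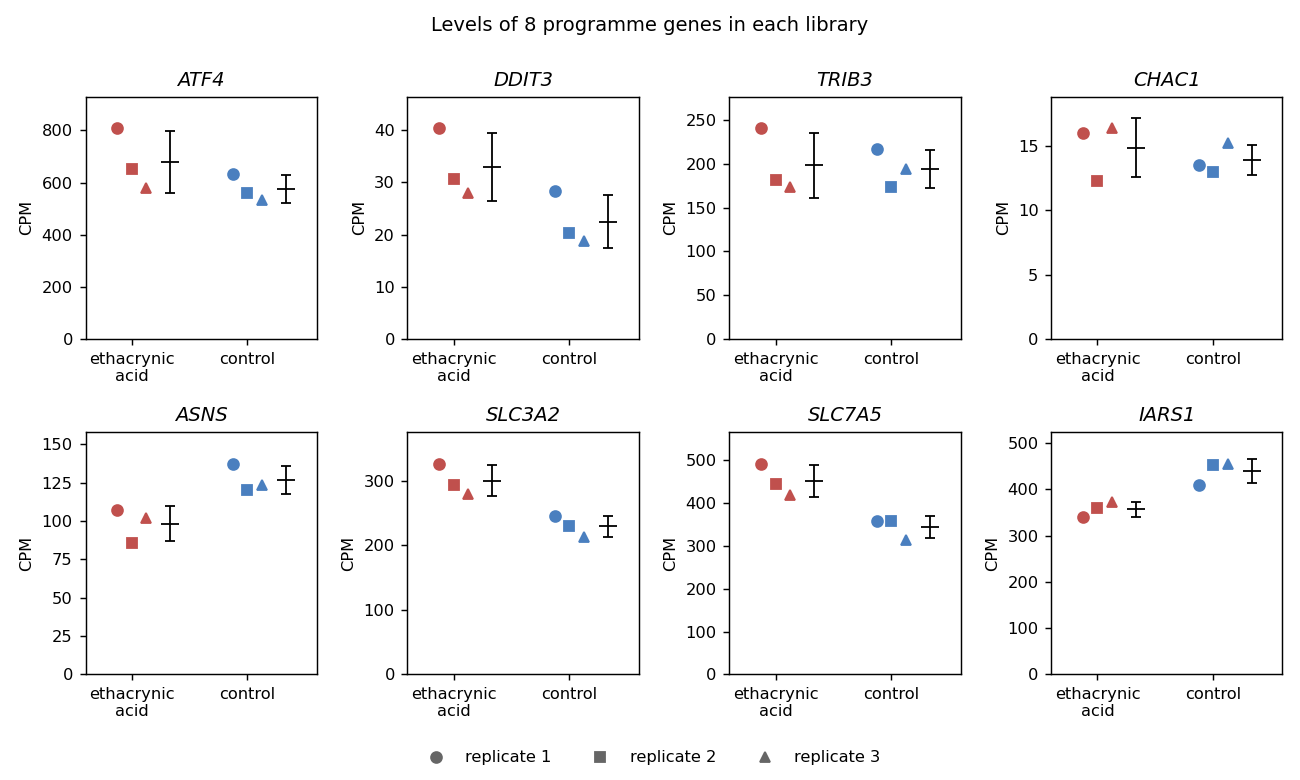
Each panel shows the CPM of 1 of 8 members in the 3 ethacrynic acid libraries (red, left) and the 3 control libraries (blue, right), with the symbol giving the replicate number and the black bar the mean ± SD. SLC3A2 and SLC7A5 lie higher in every ethacrynic acid library than in any control library, IARS1 and ASNS lie lower, and the groups overlap for ATF4, DDIT3, TRIB3 and CHAC1.

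The serine and one-carbon enzymes had 6 of 6 point estimates below 0. PSPH, which makes serine from phosphoserine, had 36.7, 37.6 and 45.4 CPM in ethacrynic acid libraries, against 47.4, 53.2 and 50.2 CPM in control libraries. All ethacrynic acid values were below all control values, and edgeR put the log2 fold change at -0.33 ± 0.11 (SE) with an adjusted p of 0.371. PSAT1, the aminotransferase of the preceding step, had 310.0, 330.0 and 332 CPM in ethacrynic acid libraries, against 350.0, 371 and 345 CPM in control libraries. These groups also did not overlap, and the 95% interval of the fold change ran from 0.797 to 1.04. ALDH1L2, a mitochondrial enzyme that oxidises formyl-tetrahydrofolate, was near the lower end of what was measured, with 0.556, 0.729 and 0.497 CPM in ethacrynic acid libraries and 0.735, 0.782 and 1.13 CPM in control libraries. Its groups were just apart, and its interval was wide (0.382 to 1.19-fold).

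PHGDH, the entry enzyme of serine synthesis, averaged 575 ± 115 CPM with ethacrynic acid and 611 ± 48.9 CPM in controls. SHMT2, which turns serine into glycine in mitochondria, averaged 409 ± 40.0 CPM with ethacrynic acid and 454 ± 18.2 CPM in controls. MTHFD2, the mitochondrial methylene-tetrahydrofolate dehydrogenase, averaged 242 ± 2.82 CPM with ethacrynic acid and 259 ± 3.21 CPM in controls (SD, n = 3 each), and its groups did not overlap. The adjusted p-values of these enzymes were 0.592 to 0.860 by edgeR's quasi-likelihood test. MTHFD2 has 7 and PSAT1 has 4 named pseudogenes, which makes their counts uncertain.

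The 12 cytosolic tRNA synthetases, each of which charges a tRNA with its amino acid (EPRS1 with both glutamate and proline), had the narrowest range of fold changes among the 5 parts. Their log2 fold changes ran from -0.30 (IARS1) to 0.014 (GARS1), and all 12 had 95% intervals within 1.5-fold in either direction. IARS1, the isoleucyl synthetase (ENSG00000196305, chromosome 9, 92210207 to 92293756, minus strand), had 339.9, 361 and 372 CPM in ethacrynic acid libraries, against 411, 454 and 456 CPM in control libraries. Every ethacrynic acid library was below every control library. Its fold change was 0.812 (95% interval 0.704 to 0.938, adjusted p = 0.320 by edgeR, 0.0333 by DESeq2).

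CARS1, the cysteinyl synthetase, had 160.3, 146 and 132 CPM in ethacrynic acid libraries, against 177, 171 and 162 CPM in control libraries. MARS1, the methionyl synthetase, had 341, 310.1 and 312 CPM in ethacrynic acid libraries, against 374, 358 and 357 CPM in control libraries. Neither pair of groups overlapped, with log2 fold changes of -0.22 ± 0.10 (adjusted p = 0.468, edgeR) for CARS1 and -0.18 ± 0.08 (adjusted p = 0.486) for MARS1. CARS1 has an antisense gene and 2 named pseudogenes. EPRS1 and LARS1, the leucyl enzyme, also had all ethacrynic acid values below all control values. EPRS1 averaged 403 ± 23.6 CPM with ethacrynic acid and 446 ± 24.5 CPM in controls. LARS1 averaged 301 ± 13.9 CPM with ethacrynic acid and 339 ± 19.5 CPM in controls (SD, n = 3 each). The other 7 (AARS1, GARS1, NARS1, SARS1, TARS1, WARS1 and YARS1) had log2 fold changes from -0.075 to 0.014 and overlapping groups. Summed over all 12, ethacrynic acid libraries had 4082 ± 137 CPM and control libraries 4371 ± 58.6 CPM, again without overlap.

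**Figure D3:**
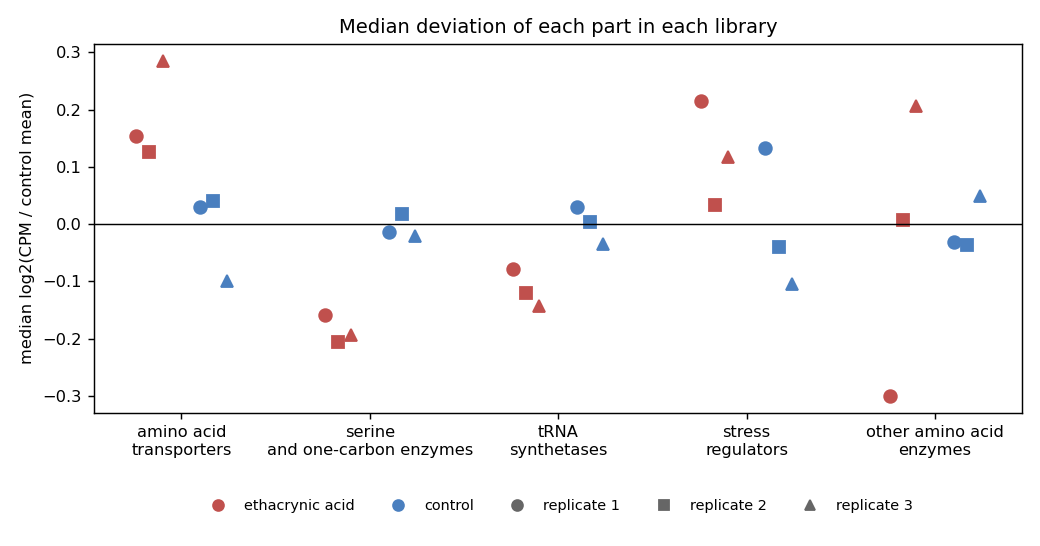
For each part and library, the point is the median over members of log2(CPM / control mean), with ethacrynic acid libraries in red on the left, control libraries in blue on the right and the symbol giving the replicate number. Control libraries lie near 0 because their mean is the reference. Transporter medians are higher (0.13 to 0.29 with ethacrynic acid, -0.10 to 0.040 in controls) and those of serine and one-carbon enzymes and of synthetases lower in every ethacrynic acid library than in any control library, while the groups overlap for stress regulators and other amino acid enzymes.

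The transporter and synthetase sums thus lay on opposite sides. Stress regulators summed to 1699 ± 246 CPM with ethacrynic acid and 1543 ± 126 CPM in controls, and serine and one-carbon enzymes to 1590 ± 136 CPM with ethacrynic acid and 1731 ± 66.4 CPM in controls (SD, n = 3 each), with overlap in both. Over all 41 members the sums were 9584 ± 580 CPM with ethacrynic acid and 9576 ± 279 CPM in controls, a difference much smaller than the spread. The sums are dominated by abundant genes and were not tested. When each member counted equally, as the median of its log2 ratio to the control mean, synthetases lay at -0.079, -0.12 and -0.14 in ethacrynic acid libraries 1, 2 and 3, and at 0.030, 0.0039 and -0.035 in control libraries 1, 2 and 3. Serine and one-carbon enzymes lay at -0.16, -0.21 and -0.19 in ethacrynic acid libraries and at -0.014, 0.017 and -0.020 in control libraries. On this scale neither part overlapped between groups, and these medians were not tested either. Control libraries lie near 0 because their mean is the reference, and no value over all genes is given on this scale. Over all 41 members the medians were 0.0017, -0.073 and -0.081 in ethacrynic acid libraries and 0.036, 0.0026 and -0.044 in control libraries, with overlap.

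Of the other amino acid enzymes, ASNS (ENSG00000070669, chromosome 7, 97852118 to 97872542, minus strand) makes asparagine and is a much used readout of ATF4 activity. It had 107, 85.4 and 102 CPM in ethacrynic acid libraries, against 137, 120.1 and 123 CPM in control libraries. Every ethacrynic acid value was below every control value. The fold change was 0.774 (95% interval 0.647 to 0.926, adjusted p = 0.325 by edgeR, 0.0796 by DESeq2). ASNS has 4 named pseudogenes. CBS, the first enzyme of transsulfuration, had 49.0, 62.7 and 67.3 CPM with ethacrynic acid and 66.6, 63.2 and 56.3 CPM in controls, and CTH, the second, averaged 38.2 ± 7.36 CPM with ethacrynic acid and 37.4 ± 3.95 CPM in controls (SD, n = 3 each). Both overlapped between the groups, and the estimate for CBS was above 0 when ethacrynic acid replicate 1 was left out (log2 fold change 0.071).

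The 3 members farthest above 0 had a single library far above the rest. PYCR1, the last enzyme of mitochondrial proline synthesis, had 1.69, 2.67 and 26.3 CPM in ethacrynic acid libraries, against 1.73, 2.03 and 2.90 CPM in control libraries. STC2 had 2.03, 2.86 and 20.1 CPM in ethacrynic acid libraries, against 2.35, 2.33 and 3.06 CPM in control libraries. SLC6A9, the glycine transporter GLYT1, had 0.393, 0.462 and 4.40 CPM in ethacrynic acid libraries, against 0.823, 0.608 and 0.627 CPM in control libraries. In each, ethacrynic acid replicate 3 was at least 4 times the highest other library, while the other ethacrynic acid libraries lay among or below the controls. The log2 fold changes were 2.20 for PYCR1, 1.69 for STC2 and 1.35 for SLC6A9 over all libraries, and -0.032, -0.083 and -0.69 without that library (adjusted p = 0.974, 0.912 and 0.436, edgeR). PYCR1 shares exon positions with MYADML2 on the same strand. Among all genes tested, 2.49% were as high in that library alone.

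Ethacrynic acid replicate 3 stood apart from the other libraries. On the first principal component of all genes, with 33.3% of the variance, it lay at 93.9, where the others lay between -36.9 and -10.4. In a list of 17 epithelial genes chosen after values were seen, 16 were highest in that library and 14 were at least 4 times the highest other. The list summed to 65.6, 71.8 and 565 CPM in ethacrynic acid libraries 1, 2 and 3, and to 54.6 to 75.5 CPM in control libraries. Myelomonocytic markers (10 genes such as LYZ and SPI1, all detected) summed to 2181 to 2732 CPM in ethacrynic acid libraries and 2148 to 2245 CPM in control libraries, lowest with ethacrynic acid in replicate 3. Of 8 markers of other cells, HBB and ALB were at 0 throughout, EPCAM was high in replicate 3, and the sums were 110.4 to 125 CPM with ethacrynic acid and 101 to 109 CPM in controls. The part of these differences in the results was not tested. Without that library 0 members were called and 0.730% of all genes were, and 17 of 41 members had a log2 fold change above 0.

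**Figure D4:**
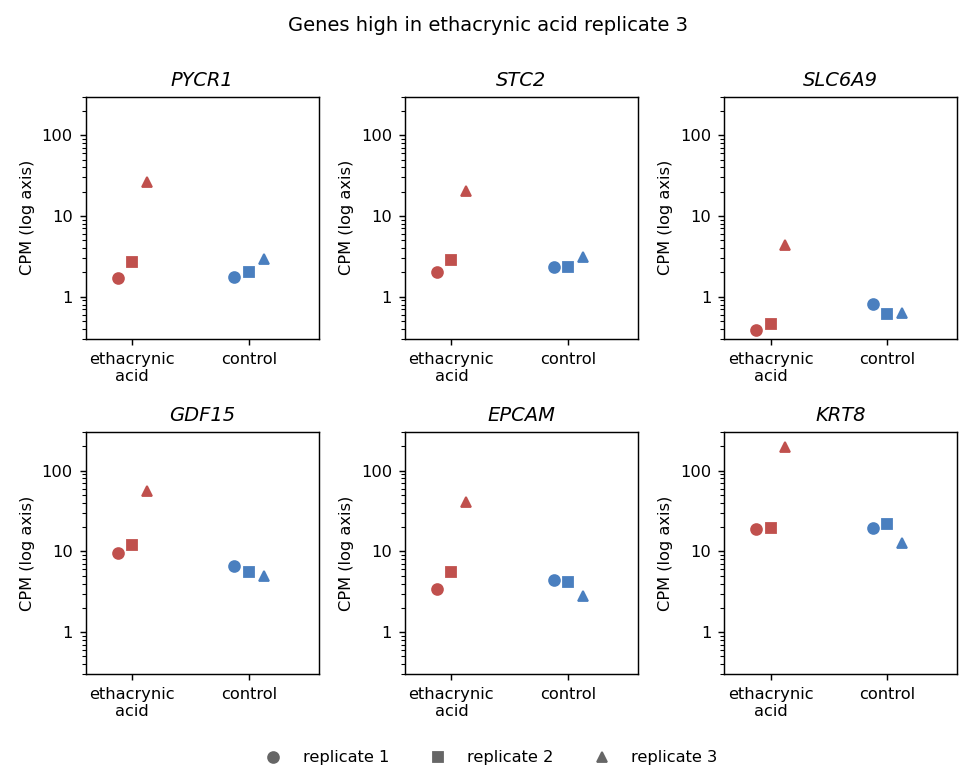
CPM on a log axis in each ethacrynic acid library (red, left) and control library (blue, right), with the symbol giving the replicate number. PYCR1, STC2, SLC6A9, GDF15, EPCAM and KRT8 each have their highest value in ethacrynic acid replicate 3.

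Levels were divided by the length of all annotated exons of a gene merged, so the order between genes depends on the annotation. By level per kilobase of exon, the order of the members was much the same in both groups. The highest were EIF4EBP1 (316 CPM per kb with ethacrynic acid, 289 in controls), ATF4 (270.3 and 229), SLC1A5 (207 and 176), PSAT1 (148 and 162) and GARS1 (125 and 124), in that order in either group. In controls the lowest were ALDH1L2 (0.104 CPM per kb), SLC6A9 (0.133), STC2 (0.421) and PYCR1 (0.769).

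Around the programme, 127 further genes were read in 7 lists. The list of genes upstream of ATF4 (eIF2 kinases, eIF2 and eIF2B subunits, and 7 other genes that act around them or on ATF4, PPP1R15B, DELE1, OMA1, GCN1, ABCF1, IMPACT and BTRC) had 0 of 19 called and a median log2 fold change of -0.016, and the smallest p belonged to ABCF1 (0.28, adjusted p = 0.496). Other cytosolic synthetases and scaffold proteins had 0 of 11 called with a median of 0.014 (RARS1 at 0.28, adjusted p = 0.410), and mitochondrial synthetases 0 of 17 with a median of 0.016. Other one-carbon and amino acid enzymes had 0 of 24 called and a median of -0.032 (PYCR3, a proline enzyme, at 0.57, adjusted p = 0.190). Further ATF4 targets and partners had 0 of 24 tested genes called and a median of -0.00038. In 10 of these 24 all ethacrynic acid values lay above all control values (8.64% of all genes), and in 1 all lay below (8.99%). Without adjustment 7 of the 24 had p under 0.05 in edgeR's test, beside 11.1% of all genes, and no test was made of these counts. The medians and the values of named genes in these lists are edgeR log2 fold changes. FGF21 and CEBPD were below the count filter.

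SLC43A2, the amino acid transporter LAT4, was the exception among the 127. It had 28.3, 28.2 and 19.9 CPM in ethacrynic acid libraries, against 9.14, 8.28 and 6.13 CPM in control libraries. It rose 3.24-fold (95% interval 2.35 to 4.48, adjusted p = 0.0224, edgeR), the single call among 15 other amino acid transporters, where the share of all genes called higher was 0.229%. The call was lost without control replicate 1, 2 or 3 and without ethacrynic acid replicate 2, with adjusted p-values up to 0.143. Its list of 15 had a median log2 fold change of 0.15, with 10 above 0. In 5 of the 15 all ethacrynic acid values lay above all control values (8.64% of all genes), and in 1 all lay below (8.99%). Without adjustment 4 of the 15 had p under 0.05 in edgeR's test, beside 11.1% of all genes. No test was made of these counts. SLC7A11, the cystine transporter that also belongs to the glutathione supply, was not called, with 51.8, 77.1 and 80.7 CPM in ethacrynic acid libraries, against 33.9, 30.6 and 43.8 CPM in control libraries (adjusted p = 0.152, edgeR). All its ethacrynic acid values were nonetheless above all its control values.

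SQSTM1, the autophagy adaptor p62, had the smallest p among the further ATF4 targets, with 351, 342 and 226 CPM in ethacrynic acid libraries, against 166, 160.4 and 117 CPM in control libraries. Its log2 fold change was 1.05 ± 0.20 (SE, adjusted p = 0.121, edgeR), and it was called without ethacrynic acid replicate 3 (1.22, adjusted p = 0.0126), by DESeq2 (2.34e-05) and in the replicate block fit (0.00301). GDF15, a secreted stress cytokine, had 9.48, 12.1 and 55.7 CPM in ethacrynic acid libraries, against 6.51, 5.62 and 4.99 CPM in control libraries. Its groups did not overlap, yet replicate 3 set most of the difference, and the log2 fold change was 0.91 without that library (adjusted p = 0.101) and 2.18 with it (adjusted p = 0.302). The endoplasmic reticulum chaperone arm, which is driven mainly by ATF6 and XBP1, had 14 of 15 genes above 0 and a median of 0.21, with 0 called. In 7 of the 15 all ethacrynic acid values lay above all control values (8.64% of all genes), and in 0 all lay below (8.99%). Without adjustment 6 of the 15 had p under 0.05 in edgeR's test, beside 11.1% of all genes, and no test was made of these counts. MANF, a secreted chaperone of that arm, had the smallest p, with 46.4, 46.8 and 42.1 CPM in ethacrynic acid libraries and 32.9, 33.0 and 28.7 CPM in control libraries (adjusted p = 0.139, edgeR). It was called by DESeq2 (adjusted p = 0.000522) and in the replicate block fit (adjusted p = 0.0307, edgeR).

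**Figure D5:**
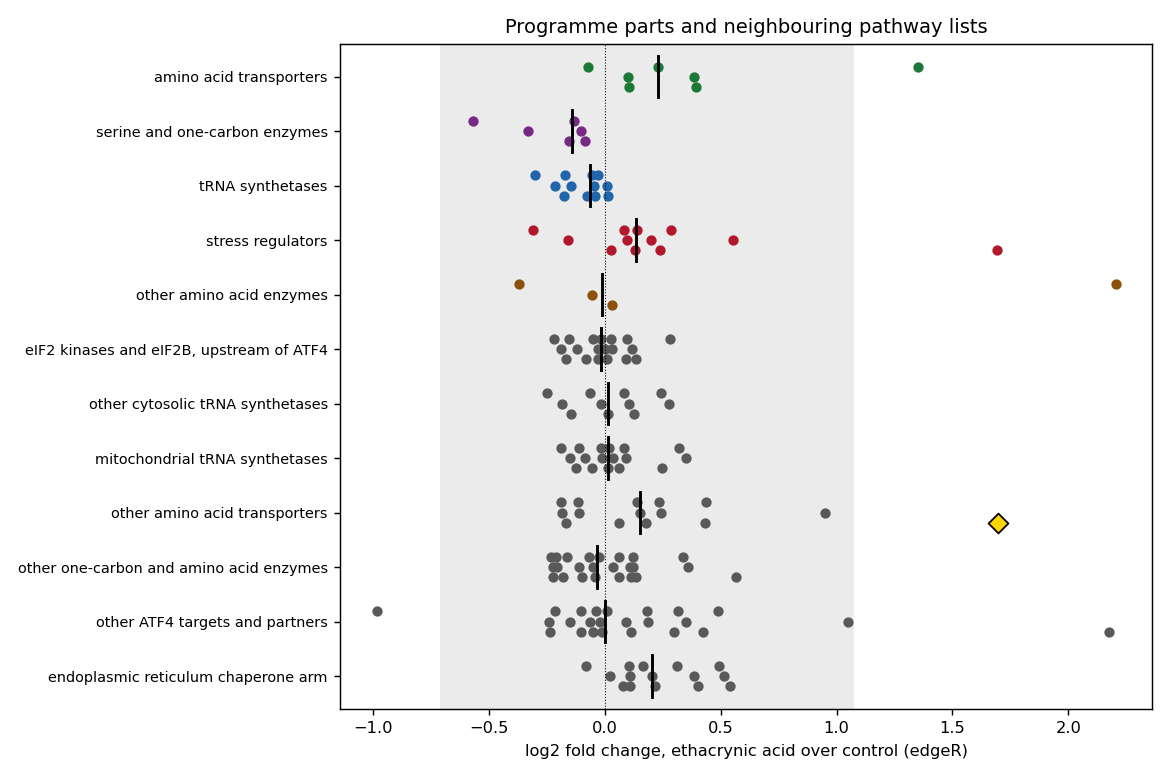
Log2 fold changes, ethacrynic acid over control, of the genes in each member part and pathway list, with a black line at the median of each. Gold diamonds mark genes with an adjusted p under 0.05, of which SLC43A2 is the single one, and the grey band runs from the 5th to the 95th percentile of all tested genes.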

How the data were processed

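Per the labels' protocols, TRIzol RNA went into SMARTER mRNA-seq libraries. The authors deposited raw counts per Ensembl gene. Tools listed in the submitters' processing notes are edgeR, StringTie 1.3.4d, HISAT2 and fastp, with the build GRCh38. The sources used here give no annotation, strand setting or counting step. Totals were 57516146 to 66677543 counts in ethacrynic acid libraries and 66907158 to 68128543 in control libraries, so the groups did not overlap in depth. A count of 4 was more frequent than its neighbours (1306 genes in control replicate 1, beside 651 at 3 and 412 at 5), so a fragment may be worth more than 1 count.

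Table columns carry group and replicate number, and 61757 IDs had a symbol. Genes were filtered with filterByExpr (minimum count 10, minimum total 15), scaled by TMM and tested with edgeR 4.0.16's quasi-likelihood F-test (R 4.3.3, limma 3.58.1), with group as the only term and adjustment over 19611 genes. SE was computed as |log2 fold change| over the root of F, and CPM from TMM-scaled library sizes. The scripts were tested on simulated counts. Members and lists were chosen with earlier results of these data known. Alternatives were DESeq2 1.42.0, limma-voom, RLE and total count scaling, no filter, a stricter one (at least 5 CPM in 3 libraries), a replicate block, an adjusted p under 0.01, counts divided by 4, protein-coding genes only and leaving out each library. Named in full were the 3 members of each part with the smallest p, plus ATF4, ATF5, DDIT3, ASNS, CHAC1, TRIB3 and CBS. In each pathway list the rule took up to 3 called genes or, with none called, the gene with the smallest p. For mitochondrial synthetases that gene is not reported here. Other genes with values, such as GDF15, SLC7A11, SLC6A9, EPCAM and KRT8, were chosen after their values were seen. Overlapping exons or named pseudogenes touched 23 of the 41 members.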

Additional observations from a re-analysis of the deposited data

How the results depend on the processing

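DESeq2 called 614 genes (3.82% of the 16082 with an adjusted p) and the replicate block 355 (1.81% of 19611), against 52 in the main fit. The stricter filter called 95, no filter 14 and an adjusted p under 0.01 called 9, and leaving out 1 library gave 4 to 148. DESeq2 called 3 members, with 2 transporters and 1 synthetase, and the block called 3, with 2 transporters and 1 stress regulator (DDIT3, adjusted p = 0.0354). Every other setting called 0 members. Of 15 other amino acid transporters, DESeq2 called 4, the block 2, no filter 0, an adjusted p under 0.01 called 0 and leaving out 1 library 0 to 2. Of 24 other one-carbon and amino acid enzymes, DESeq2 called 2 and the block 2. Of 24 further ATF4 targets tested, DESeq2 called 2, the block 1 and leaving out 1 library 0 to 1. Of 15 genes of the chaperone arm, DESeq2 called 5 and the block 1. Total count scaling moved the medians to -0.10 for members, -0.22 for serine enzymes, -0.15 for synthetases, 0.051 for stress regulators and 0.15 for transporters. Without 1 library, the median of serine enzymes ran from -0.24 to -0.13 and that of synthetases from -0.14 to -0.042. That of stress regulators ran from 0.075 to 0.21 and that of transporters from 0.15 to 0.28. The medians of other amino acid enzymes (-0.14 to 0.12) and of all members (-0.071 to 0.017) changed sign. Signs turned for 4 of the genes named in full when 1 library was left out. Log2 fold changes ran from -0.16 to 0.071 for CBS, -0.032 to 2.71 for PYCR1, -0.083 to 2.16 for STC2 and -0.13 to 0.11 for TRIB3. TRIB3 also turned under total count scaling (-0.061). Other members turned too when 1 library was left out, among them SLC6A9 (-0.69 to 1.83), PHGDH (-0.26 to 0.019), SLC7A1 (-0.18 to 0.084) and SLC38A2 (-0.077 to 0.25). For PYCR1 and STC2 the lowest value was without ethacrynic acid replicate 3. The cause was not tested. Of the named genes' alternatives, 386 kept side and sign, 13 gained a call, 6 lost one and 7 turned sign.

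The labels do not tie equal replicate numbers together, and for this reason the main fit did not take them as pairs. The pairing check gave correlations of deviations of 0.161, 0.0585 and 0.0868 for replicates 1, 2 and 3. Every library correlated best with its own number in the other group, and unequal numbers gave -0.121 to 0.0261. Whether equal numbers share a source of variation was not tested. With the replicate number in the fit 3 members were called, against 0 in the main fit. The stricter filter tested 37 members. Depth does not limit the abundant members, but ALDH1L2 and SLC6A9, under 1 CPM in most libraries, have wide intervals.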

Other observations

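ATF4, ATF5, DDIT3, TRIB3, PPP1R15A and EIF4EBP1, 6 of the 12 stress regulators, had their highest value in replicate 1 of the ethacrynic acid libraries and also in replicate 1 of the control libraries. Over all members this held for 17 of 41 genes (41.5%), including 6 of 12 synthetases and ASNS, beside 21.6% of all genes tested. No member had its highest value in replicate 2 of both groups, where 11.9% of all genes did. These counts were made after values were seen, and no test was made of them.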
